A study of Homo sapiens with 22 samples.

Results

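Mia-PaCa-2 is a human cell line from a pancreatic carcinoma, and the RNA levels of its untreated cells are described here from 4 arrays of the 22 in the study. The members were chosen by the study's labels and by an earlier look at the values. Of the 6 untreated Mia-PaCa-2 arrays, numbers 1, 2, 3 and 6 were kept and numbers 4 and 5 were set aside because their values also resemble the melanoma line. The study asked how Amblyomin-X, a recombinant tick protein that inhibits proteases, acts on tumour cells, and gave it at 1 µM for 4 h. Mia-PaCa-2 has 6 arrays with and 6 without it, and the melanoma line SK-MEL-28 has 5 with and 5 without. All cells grew in RPMI medium with serum, and the 4 arrays described here carry cells that received nothing else. RNA was labelled with biotin and bound to CodeLink arrays of short oligonucleotide probes, 1 sample per array. Each array is described as its own RNA target preparation. The titles number the 6 untreated Mia-PaCa-2 arrays from 1 to 6, while the descriptions number all 6 as replicate 1. No source used here says if these preparations stem from separate cultures, and the spread between arrays may be technical.

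A level below is the log2 of the authors' normalized intensity of 1 probe, averaged over the 4 arrays, with the SD between arrays. A probe needed a value on at least 3 of the 4 arrays and exactly 1 gene symbol, and each gene was given by its brightest such probe. Of 11604 probes with enough values, 6938 had 1 symbol, 357 had several and 4309 had none in the annotation used here. This left 6336 genes, of which 6322 had a value on all 4 arrays and 14 on 3. Genes were called highest or lowest from these same values, so the levels are a description and no test was made on them. A probe's brightness also depends on how well that probe binds its target, so the ranking is of probe signals and not of transcript numbers.

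Before normalization, the median intensity per array was 95.2, 91.6, 156 and 108 on arrays 1, 2, 3 and 6. After normalization all 4 arrays shared 1 maximum of 21001 and kept the order of their probes. The spread of a gene between arrays therefore reflects changes of its place within each array. Over all probes with values, arrays 1, 2, 3 and 6 correlated with each other by 0.872 to 0.955. They correlated with arrays 4 and 5 by 0.724 to 0.817, and arrays 4 and 5 correlated with each other by 0.917. Over 5244 probes measured in both lines, the correlation with the mean of the 5 untreated SK-MEL-28 arrays was 0.420 to 0.475 on arrays 1, 2, 3 and 6, against 0.781 and 0.782 on arrays 4 and 5. These correlations are across probes within samples, and probes are not independent. Arrays 4 and 5 were set aside for this resemblance, so their higher correlation with SK-MEL-28 repeats that choice and lends it no support.

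Growing cells spend much of their RNA on a common set of tasks. Ribosomes, built from ribosomal RNA and a small and a large set of proteins, translate messages with the help of initiation and elongation factors. Glycolysis and the respiratory chain supply energy, chaperones fold new proteins, and the proteasome degrades proteins that carry ubiquitin. Pancreatic ductal carcinoma cells also carry epithelial intermediate filaments, above all the keratin pair KRT8 and KRT18 of simple epithelia.

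Of the 100 highest genes, 23 encode cytosolic ribosomal proteins, 6 proteasome proteins, 5 parts of the respiratory chain and ATP synthase, 4 chaperones, 3 translation factors and 3 glycolytic enzymes. Over all 6336 measured genes, these groups hold 51, 36, 55, 34, 39 and 12 genes, in the same order. Some messages of the highest genes begin with a short run of C and T bases. This run, the 5′ terminal oligopyrimidine or TOP motif, is known from ribosomal protein and elongation factor genes, where growth signals act on translation through it. The sequences below, from RefSeq on build GRCh38.p14, show the 40 bases before and the first 20 bases from the annotated start of 8 of the highest genes. Capitals mark an unbroken run of C and T at the start, if it opens with C followed by at least 4 further C or T bases. Shorter runs are not marked. The first 5 are ribosomal proteins, EEF2 is a translation elongation factor and COX7C is a subunit of cytochrome c oxidase. HSPA8 is shown because it is as bright as the others and has no such run. The 8 genes were picked by hand, 7 of them with the run, so they do not show how common it is.
RPL38 (chr17:74203638-74203697, plus strand): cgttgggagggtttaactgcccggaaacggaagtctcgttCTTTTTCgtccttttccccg
RPS16 (chr19:39435930-39435989, minus strand): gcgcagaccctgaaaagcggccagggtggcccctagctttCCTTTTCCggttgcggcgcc
RPS10 (chr6:34426050-34426109, minus strand): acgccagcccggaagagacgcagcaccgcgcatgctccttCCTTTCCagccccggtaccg
RPS27 (chr1:153990722-153990781, plus strand): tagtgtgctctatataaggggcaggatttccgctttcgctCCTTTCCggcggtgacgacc
RPL21 (chr13:27251518-27251577, plus strand): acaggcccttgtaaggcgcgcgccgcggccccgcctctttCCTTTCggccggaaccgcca
EEF2 (chr19:3985444-3985503, minus strand): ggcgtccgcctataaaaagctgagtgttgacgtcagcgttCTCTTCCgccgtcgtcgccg
COX7C (chr5:86617901-86617960, plus strand): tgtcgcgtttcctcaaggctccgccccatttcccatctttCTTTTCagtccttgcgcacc
HSPA8 (chr11:123062117-123062176, minus strand): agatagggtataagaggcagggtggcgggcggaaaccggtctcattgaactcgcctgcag

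Levels ran from 4.08 to 13.88, with a median of 6.81 and quartiles of 6.09 and 7.89. Between 6 and 8 lay 3513 genes, or 55.5% of all. Only 301 genes exceeded 10 and 44 exceeded 12. A small bright group thus stood above a broad mass of dimmer genes. In the plot of level and spread, the 6 markers given for the line stand at or above 8.02, which is over the upper quartile, and TPI1, HSPA8 and KRT18 alone of them stand above 10.

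**Figure D1:**
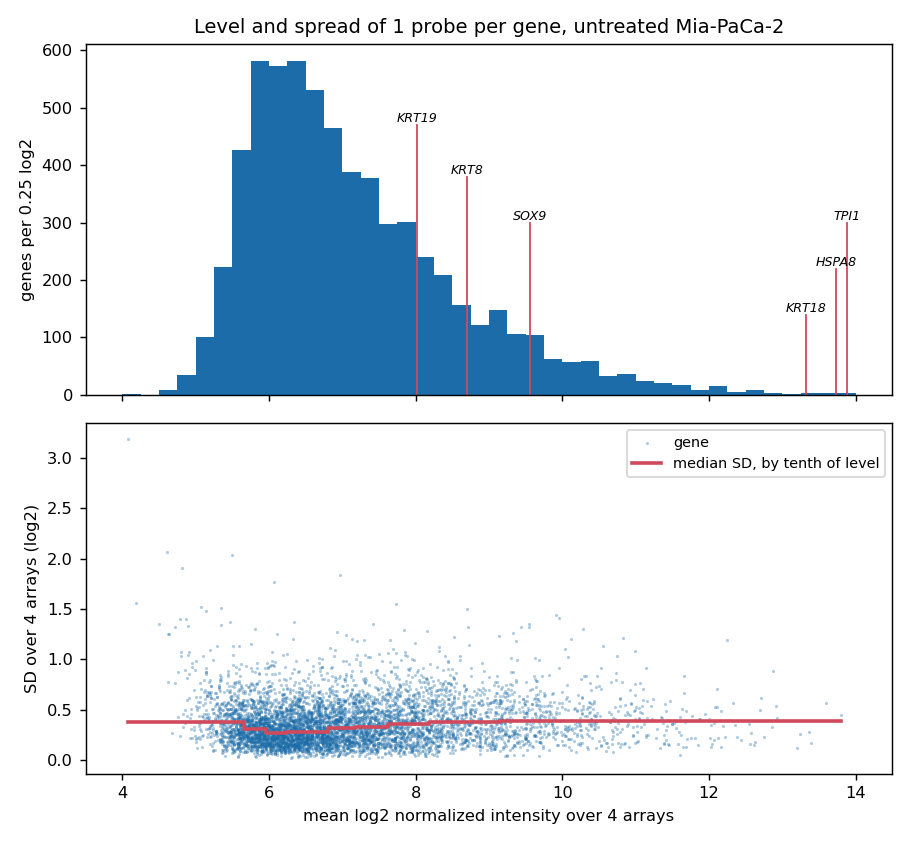
Top, number of genes (vertical axis) by mean log2 normalized intensity over arrays 1, 2, 3 and 6 (horizontal axis, bins of 0.25), with lines at the 6 markers of the line, from KRT19 at 8.02 to TPI1 at 13.88. Bottom, SD of each gene over the 4 arrays (vertical axis, log2) against its level, with the median SD in 10 equal bins of level as a stepped line, which lies between 0.272 and 0.384.

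The glycolytic enzyme TPI1, triosephosphate isomerase, led the ranking at 13.88 ± 0.22 (SD, n = 3). Its level was 14.13, 13.75 and 13.75 on arrays 2, 3 and 6, and on array 1 the probe was among the brightest, which have no normalized value there. RPL38 followed with 13.57, 14.36 and 13.62 on arrays 1, 3 and 6, and again no value on the remaining array. RPL32 had 14.36, 13.95, 13.49 and 13.38 on arrays 1, 2, 3 and 6, and RPS16 had 13.42, 14.36, 13.57 and 13.00. Their order changed from array to array. Among the 6336 genes, RPL32 was the highest with a value on array 1, RPS16 on array 2, RPL38 on array 3 and ASIC4 on array 6. The differences between these genes were thus no larger than the spread between arrays.

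Of the 25 highest genes, 11 encode cytosolic ribosomal proteins, as do 51 of all 6336 measured genes. The 11 are RPL38, RPL32, RPS16, RPL11, RPS10, RPS27, RPL21, RPL27A, RPL41, RPL10A and RPS2. Glycolysis is represented by TPI1 and by ENO1, enolase, at 12.57 ± 0.27 (SD, n = 4). The chaperones HSPA8, the constitutive HSP70 of the cytosol, and HSPB1, the small heat shock protein HSP27, stood at 13.73 ± 0.19 (SD, n = 3) and 12.69 ± 0.50 (SD, n = 4). Mitochondrial proteins were CHCHD2 at 13.36, CHCHD10 at 12.92 and COX7C at 12.74. UBA1, the main activating enzyme of the ubiquitin pathway, averaged 12.88 but with a wide spread: 14.13 on array 1, against 12.58, 12.05 and 12.75 on arrays 2, 3 and 6. DYNLL1, a light chain of cytoplasmic dynein, and SF3B6, a subunit of the U2 snRNP, held closely at 13.38 ± 0.17 and 13.19 ± 0.12 (SD, n = 4).

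**Figure D2:**
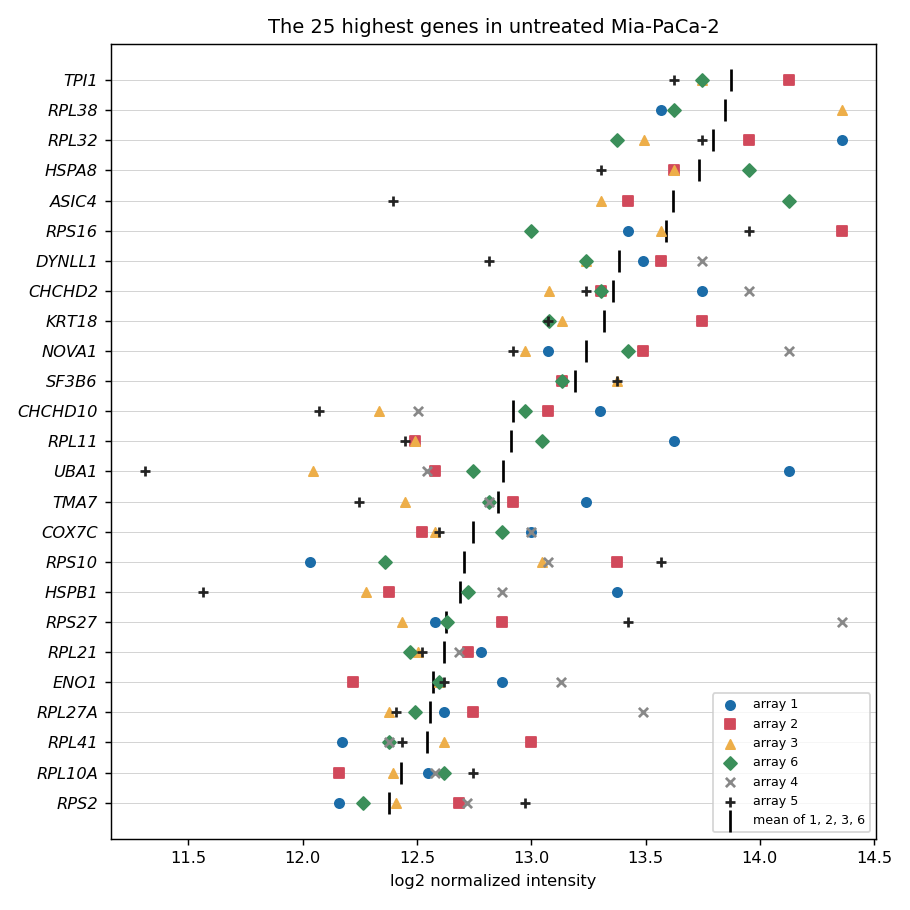
Log2 normalized intensity (horizontal axis) of the 25 highest genes (rows) on arrays 1, 2, 3 and 6 (filled symbols) and on arrays 4 and 5 (crosses), with a bar at the mean of the 4 filled symbols. ASIC4, UBA1 and HSPB1 lie lower on array 5 than on any of the 4, and RPS27 lies higher on both crosses.

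Some genes of this upper set are known mainly from neurons. ASIC4, a member of the acid-sensing ion channel family, had 13.42, 13.30 and 14.13 on arrays 2, 3 and 6 and no normalized value on array 1. NOVA1, a neuronal splicing regulator, had 13.08, 13.49, 12.97 and 13.42 on arrays 1, 2, 3 and 6. P2RX3, an ATP-gated channel of sensory neurons, averaged 11.14 ± 0.25 (SD, n = 4), at rank 97. A second NOVA1 probe read 8.75, 8.22, 8.36 and 9.18 on the same arrays, so the 2 probes for this gene differ by over 4 log2 on every array. The names are those of the platform annotation, and whether the bright probes match these transcripts was not tested.

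Different probes of a gene often disagreed. Among 551 genes with 2 or more probes, the brightest exceeded the next by a median of 1.05 log2, and by more than 2 log2 in 152 genes. The second KRT18 probe read 6.67 to 7.06 on the 4 arrays, against 13.08 to 13.75 for the brightest on the arrays where it has a value. For HSPA8 the second probe averaged 6.20, for TPI1 9.10 and for RPL38 4.76. The level of these genes rests on 1 probe each, and the second probe of RPL38 would place the gene among the lowest.

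Among the gene families, the cytosolic ribosomal proteins had the highest median. Their 51 measured members had a median of 10.41, against 6.81 over all genes, and 37 of them lay in the highest 10%, which starts at 9.15. In the 17 members of the small subunit the median was 11.14, and in the 34 of the large subunit it was 10.16. RPS16, RPS10, RPS27 and RPS2 led the small subunit. RPS10 had 12.03, 13.38, 13.05 and 12.36 on arrays 1, 2, 3 and 6, so arrays 2 and 3 were higher than arrays 1 and 6. At the other end, RPL28 averaged 5.39 ± 0.55 and RPS23 averaged 5.73 ± 0.33 (SD, n = 4), both under the lower quartile of all genes. Only 4 of the 51 members fell below the median of all genes.

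Ribosomal protein genes were also the ones that carried the TOP motif most often. At the annotated start, 32 of 45 ribosomal protein genes with a promoter in the RefSeq table had a C followed by at least 4 further C or T bases, or 71.1%. The shares were 10 of 32 for translation factors and 5 of 44 for oxidative phosphorylation. They were 25 of 86 for the 100 highest genes, 7 of 76 for the 100 lowest and 373 of 5301 for all measured genes, or 7.04%. Over all promoters in the table the share was 5.14%. The 100 highest genes include 23 ribosomal protein genes, so these sets overlap, and the share without them was not computed. Among the ribosomal proteins the 32 genes with the motif had a median level of 10.78 and the 13 without it 9.65. RPL32 and RPL10A are bright without the motif at their annotated start, and RPL28 carries it while being dim. With genes in 10 equal bins by level, the share was 5.58% in the lowest bin and 13.3% in the highest, which holds most of the ribosomal protein genes.

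Other letters of the promoters differed less between bright and dim genes. In windows of 250 bases before to 50 after the start, read on both strands, CCGGAAG, a site of the ETS family, was found in 25.6% of the 100 highest genes, 11.8% of the 100 lowest and 23.1% of all measured genes, against 12.2% of all promoters. It was more frequent in mitochondrial ribosomal protein genes, at 44.6%, and in zinc finger genes, at 39.3%, although these 2 groups lie on opposite sides of the median level. TATAAA was found in 11.6%, 14.5% and 8.66% of the 3 sets, and in 14.0% of all promoters. GGGCGG, a site of SP factors, was found in 75.6%, 64.5% and 74.2%, and in 48.3% of all promoters. CACGTG, the E-box bound by MYC among others, was found in 16.3%, 10.5% and 12.5%, against 8.78% of all promoters, and in 5 of 12 glycolysis genes. The windows overlap where motifs share letters, and a match describes these letters only.

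The brightest genes were short. The median span from start to end of the gene in RefSeq was 8.89 kb for the 100 highest genes, 27.1 kb for the 100 lowest and 26.1 kb for all. Over 10 equal bins of level it was 31.7 kb in the lowest, 26.2 kb in the seventh and 15.8 kb in the highest. The ribosomal protein genes had a median span of 5.04 kb. Of the 100 highest genes 99 were protein coding and 1 was a long non-coding RNA, against 83 and 15 of the 100 lowest. Over all measured genes with a RefSeq type, 93.0% were protein coding and 396 were long non-coding RNAs.

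**Figure D3:**
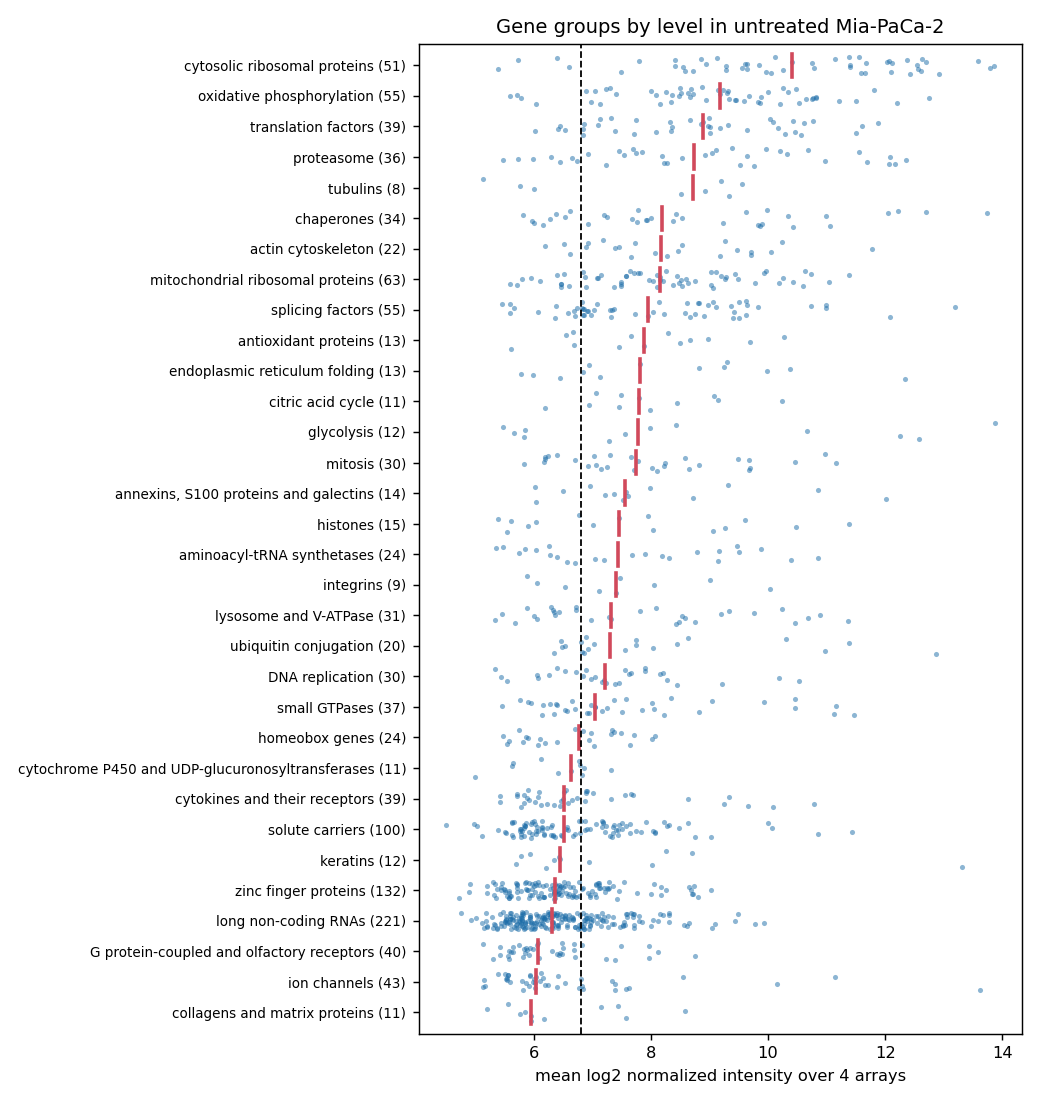
Mean log2 normalized intensity over arrays 1, 2, 3 and 6 (horizontal axis) of every measured member (points) of 32 gene groups (rows, with the number of members in brackets), ordered by the group's median (red bar). The dashed line is the median of all genes at 6.81. Ribosomal proteins and oxidative phosphorylation lie at the top, and matrix proteins, ion channels and receptors at the bottom.

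Translation factors had a median of 8.89, with 15 of 39 members in the highest 10%. EEF2, the elongation factor that moves the ribosome along the message, stood at 11.50 ± 0.36 (SD, n = 4) and the 6 elongation factors had a median of 9.65. The 33 initiation factors had a median of 8.85. Within them, EIF3L and EIF3E, subunits of the scaffold complex eIF3, stood at 11.87 ± 0.41 and 11.61 ± 0.05 (SD, n = 4), and EIF4B, which aids the helicase that opens the message's start, at 10.76. EIF3E was the steadiest of these, with 11.65, 11.64, 11.58 and 11.56 on arrays 1, 2, 3 and 6. Charging of transfer RNA was less bright. The 24 aminoacyl-tRNA synthetases had a median of 7.43, and 6 lay in the highest 10%, led by IARS1 at 10.85 and GARS1 at 10.39.

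The machinery of respiration had the next highest median. Its 55 members had a median of 9.18, and 28 lay in the highest 10%. By complex, cytochrome c oxidase (complex IV) had a median of 10.05 over 10 members, the ATP synthase 9.71 over 14, complex III 8.87 over 5 and complex I 8.66 over 26. COX7C led with 13.00, 12.52, 12.58 and 12.87 on arrays 1, 2, 3 and 6. ATP5F1E and ATP5PB of the ATP synthase averaged 12.19 and 11.49, and NDUFS5 of complex I averaged 11.81. NDUFA10 and NDUFA2 lay at 5.58 and 5.71. The 63 mitochondrial ribosomal proteins had a median of 8.15, with 16 in the highest 10%, led by MRPS21 at 11.39 and MRPL37 at 11.04. The citric acid cycle stood at 7.79 over 11 enzymes, of which MDH1, cytosolic malate dehydrogenase, lay in the highest 10%. MDH2, the mitochondrial enzyme, averaged 9.14, just under it, and 2 enzymes lay in the highest 10% without array 1, without array 6, or with the mean of a gene's probes.

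Glycolysis was uneven. Its 12 measured enzymes had a median of 7.77, and TPI1, ENO1, GAPDH and LDHA lay in the highest 10%. GAPDH, often used as a reference gene, had 10.86, 13.05, 13.42 and 11.65 on arrays 1, 2, 3 and 6, so that arrays 2 and 3 were above arrays 1 and 6. Its SD of 1.20 is among the larger ones of bright genes, and its rank ran from 6 on array 3 to 153 on array 1. LDHA, lactate dehydrogenase A, had 9.54, 10.99, 11.31 and 10.80, with array 1 lowest. ENO1 moved the other way, with 12.87 on array 1 and 12.22, 12.60 and 12.60 on arrays 2, 3 and 6. HK2, hexokinase, and PKLR, the pyruvate kinase of liver and red cells, lay low at 5.67 and 5.47.

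The proteasome had a median of 8.73 over 36 members, with 15 in the highest 10%. The core particle had 12.35 for PSMB6, 12.17 for PSMA6 and 12.07 for PSMA5, and a median of 8.24 over 16 members. The regulatory particles and assembly factors had a median of 8.99 over 20 members, led by PSMC4, an ATPase of the base, at 12.08. The catalytic subunit PSMB5 read 5.10, 5.45, 5.94 and 5.43 on arrays 1, 2, 3 and 6, in the lowest 10%. PSMB8, the interferon-induced subunit, read 5.73 ± 0.55 (SD, n = 4). Probes for core subunits of the same particle thus spanned 5.48 to 12.35. Ubiquitin-conjugating enzymes and their activators had a median of 7.30 over 20 members, with UBA1, UBE2N, UBE2C and UBE2S in the highest 10%.

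Chaperones had a median of 8.19 over 34 members, and 14 lay in the highest 10%. The cytosolic chaperonin CCT, which folds actin and tubulin, had a median of 9.88 over 8 subunits, 6 of them in the highest 10%. HSPA8, HSPB1, HSPE1 and HSPA4 led the list, and HSPE1, the mitochondrial co-chaperonin, held at 12.21 ± 0.23 (SD, n = 4). In the endoplasmic reticulum, the lectin chaperone CANX averaged 12.33, with 12.92, 12.03, 11.69 and 12.69 on arrays 1, 2, 3 and 6, while PPIB and SEC61A1 averaged 5.98 and 5.78. Splicing factors had a median of 7.95 over 55 members and 14 in the highest 10%, among them HNRNPC at 12.09 and SF3B6.

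Genes of dividing cells were spread across the range. The 30 mitosis genes had a median of 7.74, and 7 lay in the highest 10%. CKS2, a partner of cyclin-dependent kinases, led at 11.16 ± 0.58, before UBE2C, the conjugating enzyme of the anaphase-promoting complex, at 10.97 ± 0.32 and ECT2, which directs the cleavage furrow, at 10.46 ± 0.39 (SD, n = 4). FOXM1, a transcription factor of mitotic genes, averaged 6.18. The 30 DNA replication genes had a median of 7.21, with MCM2 and MCM7 of the replicative helicase at 10.53 and 10.19. Among 15 histone genes, the replication-independent variants H3-3B and H2AZ2 led at 11.38 and 10.47.

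Of the cytoskeleton, 22 genes of actin and its partners had a median of 8.17 and 8 tubulins had a median of 8.72. TUBB4B, a beta tubulin, had 8.32, 10.56, 10.86 and 8.46 on arrays 1, 2, 3 and 6. Arrays 2 and 3 were thus higher than arrays 1 and 6. The actin-severing protein DSTN averaged 11.77. Among annexins, S100 proteins and galectins, ANXA2, a calcium-dependent membrane binder, averaged 12.01 ± 0.22 and S100A11 averaged 10.85 ± 0.17 (SD, n = 4), while ANXA1 and S100A2 averaged 6.04 and 6.02.

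Among the 12 measured keratins, KRT18 lay in the highest 10%, at 13.32 ± 0.37 (SD, n = 3). Without array 6 there were 2 keratins in the highest 10%, and with a value required on all 4 arrays there were 0, since KRT18 has 3. It read 13.75, 13.13 and 13.08 on arrays 2, 3 and 6. Its partner KRT8 read 7.48, 10.03, 9.96 and 7.31 on arrays 1, 2, 3 and 6, and KRT19 read 7.36, 8.87, 8.68 and 7.18. Both were more than 1 log2 higher on arrays 2 and 3 than on arrays 1 and 6. In RNA from a whole culture, fewer cells with a transcript and less of it per cell cannot be told apart. KRT80 followed at 8.25, and the other 8 keratins, among them hair and epidermal ones such as KRT33B and KRT78, lay between 5.70 and 6.94. The keratin median was 6.44, under that of all genes.

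The label of the line was set beside cell type markers. Of 15 ductal epithelial markers, 6 were measured, and 4 of these (KRT18, SOX9, KRT8 and KRT19) had been given for the line with earlier results of these data known, so their levels lend the label no support. SOX9, a transcription factor of pancreatic ducts, read 9.95, 9.55, 9.28 and 9.45 on arrays 1, 2, 3 and 6, at the percentile 93.0, and differed little between arrays. CLDN4, a tight junction protein, and MUC1, a membrane mucin, averaged 7.19 and 6.99, and MUC1 was below the median of all genes on arrays 1 and 2, at 6.46 and 6.71. Of 14 mesenchymal markers 2 were measured, S100A4 at 9.31 ± 0.74 and the receptor AXL at 6.08 ± 0.06 (SD, n = 4). For stroma, PECAM1 read 7.18 and COL1A1 read 6.18. For melanocytes, RAB27A, which moves melanosomes, averaged 8.06 on arrays 1, 2, 3 and 6, against 7.67 and 6.58 on arrays 4 and 5. SLC45A2, a melanosome transporter, averaged 7.37, against 6.96 and 7.01 on arrays 4 and 5. Both means were above the values on the arrays set aside, but single arrays overlapped with them. RAB27A read 7.20 on array 3, under its value on array 4, and SLC45A2 read 6.995 on array 1, under its value on array 5. By their means both melanocyte markers were above CLDN4 and MUC1, but not on every array. SLC45A2 was below CLDN4 on arrays 1 and 6, and RAB27A was below MUC1 on array 3. RAB27A and SLC45A2 were the only 2 of 18 listed melanocyte markers among the measured genes. None of the 18 acinar, 17 islet and 15 leukocyte markers was among them, so the part of other cell types was not tested.

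Of 20 listed genes of pancreatic cancer 7 were measured, and none lay in the highest or lowest 10%. AURKA, AKT2 and ERBB2 averaged 8.10, 8.09 and 7.71, and EGFR averaged 6.65 over the 3 arrays on which it has a value. The tumour suppressors ARID1A, SMAD4 and RB1 averaged 6.53, 6.08 and 5.86, all 3 under the median of all genes. SMAD4 read 6.84, 5.30, 5.81 and 6.37 on arrays 1, 2, 3 and 6, with array 1 highest.

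The groups with the lowest medians were matrix, channel and receptor genes, many of which act in specialised cells. Of the 100 lowest genes, 18 belonged to any of the lists. Among them were 5 of the 221 long non-coding RNAs and 4 of the 100 solute carriers. There were also 3 of the 132 zinc finger genes, 3 of the 43 ion channels and 1 of the 40 receptors, with 6336 genes measured in all. The share of all genes that belong to any list was not computed, so the count of 18 does not show if listed genes are rare at the low end. The 11 collagens and matrix proteins had a median of 5.96, the 43 ion channels 6.04, and the 40 G protein-coupled and olfactory receptors 6.07. None of the receptors or matrix genes lay in the highest 10%, and 10 receptors and 11 ion channels lay in the lowest. The 3 channels in the highest 10% were ASIC4, P2RX3 and CLCN5. DRD4, a dopamine receptor, was the highest receptor at 8.75. The 132 zinc finger genes, many of which are known as DNA-binding repressors, had a median of 6.37. None of them reached the highest 10%, 23 lay in the lowest and 94 lay below the median of all genes. The 221 long non-coding RNAs listed by their symbols (LINC, antisense and host genes) had a median of 6.31 with 4 in the highest 10% and 38 in the lowest. LINC00950 at 9.92, LINC00887 at 9.78, SNHG6 at 9.48 and LINC01467 at 9.43 were the 4 high ones of this list, which leaves out long non-coding RNAs with other kinds of symbol. The 100 solute carriers had a median of 6.51, and their brightest members were the mitochondrial carriers SLC25A5, which exchanges ADP for ATP, at 11.44 and SLC25A3, which imports phosphate, at 10.85.

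The 39 cytokines and their receptors had a median of 6.52, with 24 below the median of all genes and 5, or 12.8%, in the highest 10%. Among these, CXCL8, the neutrophil chemokine interleukin 8, read 10.81, 9.98, 10.92 and 11.45 on arrays 1, 2, 3 and 6. CCL22 averaged 10.08 and CSF3, the growth factor of granulocytes, averaged 9.65 ± 0.78 (SD, n = 4). The integrins were led by ITGA3 at 10.03, which pairs with ITGB1 to bind laminin.

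The 20 lowest genes lay between 4.08 and 4.85, and the next gene above them lay at 4.86. SGPL1, which degrades sphingosine phosphate, was lowest, with -0.61, 4.81, 6.37 and 5.75 on arrays 1, 2, 3 and 6. CCNP read 1.97, 5.02, 4.33 and 5.46, TMEFF1 read 5.81, 1.59, 4.97 and 6.06, and SLC43A1 read 5.23, 5.26, 2.48 and 5.04. In each of these genes 1 array was far below the other 3. AWAT1 and TRIM21 were lowest in a steadier way, with SDs of 0.24 and 0.27. TCAP had an SD of 0.33, with 4.34 on array 3 against 4.94 to 5.05 on the others. Of the 20, FAM136A and TMEFF1 are also among the 10 genes of largest spread, as are SGPL1 and CCNP, so the low end mixes genes that were dim on all arrays with genes that were very dim on 1.

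The brightest probes lack a value in the normalized table, and the per-sample intensities show them. On array 1 the 7 brightest probes had none, on array 2 the 4 brightest, and on arrays 3 and 6 the brightest alone. On each array this number equals the number of probes with a blank in its per-sample file (7, 4, 1 and 1), and the 4 dimmest probes of each array had no value either. The brightest probe of arrays 1, 3 and 6 has no name in the annotation used here and read 20882, 10666, 25476 and 24927 before normalization on arrays 1, 2, 3 and 6. RPS13, a small subunit protein, read 13845, 14070, 20695 and 20741. It was the brightest probe of array 2, the second of array 6 and the third of array 1. With normalized values of 13.95 and 14.36 on arrays 3 and 6 alone, it missed the requirement of 3 arrays and is not among the 6336 genes, though it is as bright as those at the top.

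**Figure D4:**
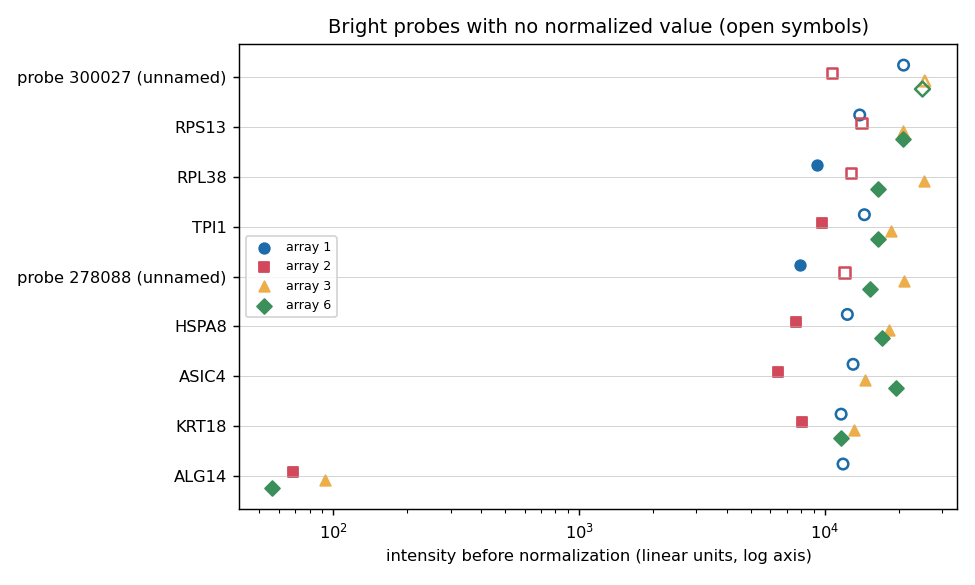
Intensity before normalization (horizontal axis, log scale, linear units) of the 9 bright probes (rows) that lack a normalized value on at least 1 of arrays 1, 2, 3 and 6. Open symbols mark the arrays without a normalized value. ALG14 is open on array 1 at 11841 and lies between 56.3 and 92.4 on the others.

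TPI1 read 14462, 9767, 18543 and 16447 before normalization, and HSPA8 read 12329, 7653, 18209 and 17035. Among all probes of each array before normalization, TPI1 ranked 2, 6, 5 and 5 and HSPA8 ranked 5, 9, 6 and 4 on arrays 1, 2, 3 and 6. KRT18 read 11630, 8075, 13167 and 11658 and ranked from 7 to 14 among all probes of its array. ASIC4 read 13011, 6430, 14519 and 19498. ALG14, a subunit of an enzyme of N-glycan synthesis, read 11841 on array 1, against 68.3, 92.4 and 56.3 on arrays 2, 3 and 6. The other 8 bright probes were bright on all 4 arrays, and ALG14 on 1 only.

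The 4 arrays fell into 2 pairs. Arrays 1 and 6 correlated by 0.945 and arrays 2 and 3 by 0.955, above the pairs across, which ran from 0.872 to 0.915. Of 6322 genes with 4 values, 1929 (30.5%) were lower on both of arrays 1 and 6 than on both of arrays 2 and 3, and 2079 (32.9%) were higher. Of 50 ribosomal proteins 34 were lower on arrays 1 and 6 and 3 were higher. The same counts were 35 and 11 of 55 for oxidative phosphorylation, 24 and 7 of 39 for translation factors, 7 and 0 of 11 for glycolysis, and 15 and 2 of 22 for actin genes. Other bright groups leaned the same way but less strongly. The counts were 32 and 16 of 63 for mitochondrial ribosomal proteins and 27 and 11 of 55 for splicing factors. They were 15 and 8 of 35 for the proteasome and 13 and 9 of 33 for chaperones. Of 42 ion channels, 2 were lower on arrays 1 and 6 and 21 were higher. The pairs were noticed in these values, and what sets them apart was not tested.

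Because all arrays were given the same distribution, the median of a group is read against that of all genes on the same array. The ribosomal proteins stood 2.78, 4.22, 4.29 and 3.50 above it on arrays 1, 2, 3 and 6. Glycolysis stood at -0.13, 0.94, 1.70 and 0.86, so it was at the level of all genes on array 1. The actin group stood at 0.81, 1.73, 2.14 and 1.20. The median of the endoplasmic reticulum folding proteins stood at 1.27, 0.68, 0.71 and 1.23, but of its 13 members 5 were lower and 5 were higher on arrays 1 and 6. Mitosis genes were highest on arrays 1 and 2, at 1.18 and 1.13, and stood at 0.87 and 0.69 on arrays 3 and 6.

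**Figure D5:**
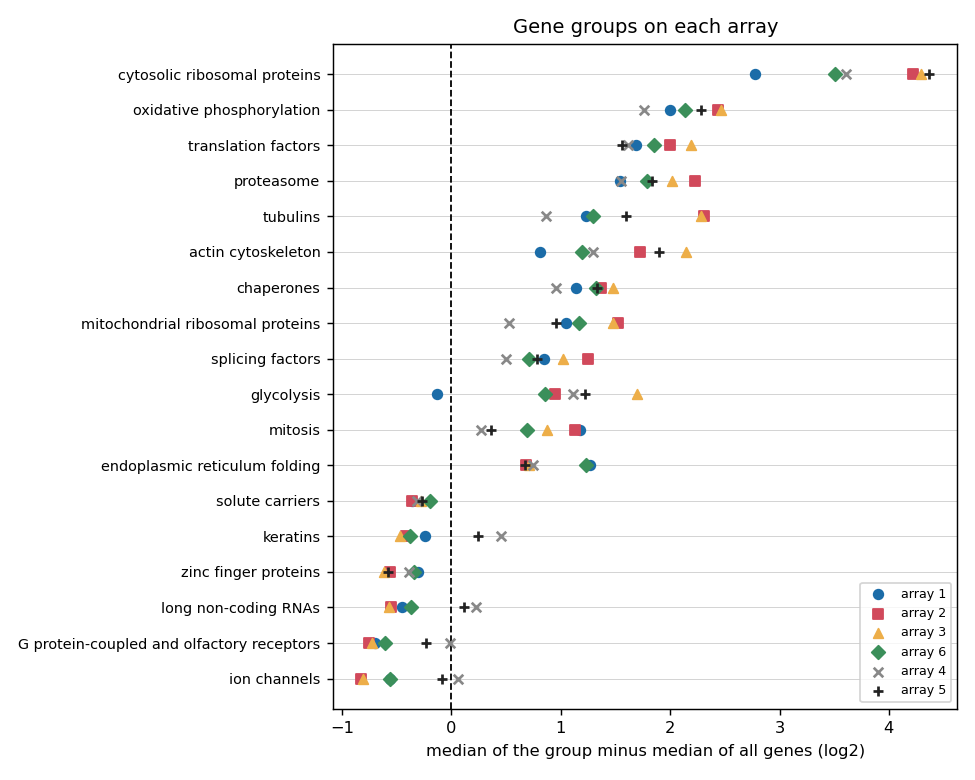
Median of each gene group minus the median of all genes (horizontal axis, log2) on arrays 1, 2, 3 and 6 (filled symbols) and on arrays 4 and 5 (crosses), over members with a value on all 4 arrays. Ribosomal proteins lie furthest right on every array, and keratins, long non-coding RNAs, receptors and ion channels lie left of 0 on the 4 arrays but not, or less so, on arrays 4 and 5.

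Arrays 4 and 5 differed from the 4 arrays in some groups, bright and dim, and not in others. Ribosomal proteins stood 2.78 to 4.29 above all genes on the 4 arrays, against 3.61 and 4.37 on arrays 4 and 5. Mitochondrial ribosomal proteins stood at 1.05 to 1.53, against 0.53 and 0.95, and mitosis genes at 0.69 to 1.18, against 0.27 and 0.36. Ion channels stood at -0.56 to -0.82 on arrays 1, 2, 3 and 6, against 0.06 and -0.09 on arrays 4 and 5. Long non-coding RNAs stood at -0.37 to -0.57, against 0.23 and 0.11, and keratins at -0.24 to -0.47, against 0.46 and 0.25. DNA replication genes stood at 0.24 to 0.69, against -0.76 and -0.36. Zinc finger genes, at -0.31 to -0.61, against -0.39 and -0.58, and solute carriers, at -0.19 to -0.36, against -0.31 and -0.26, overlapped. Of the 100 highest genes, 75 were also among the 100 highest on arrays 4 and 5 and 99 in the highest 10%. Since arrays 4 and 5 were set aside by their values, these differences are a description.

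The spread of a gene over the 4 arrays had a median of 0.323 log2. In 4939 of 6322 genes, or 78.1%, the SD was under 0.5, and in 93 genes, or 1.47%, it was above 1. Over 10 equal bins of level, the median SD was 0.376 in the lowest, 0.272 in the third and 0.384 in the highest. Bright genes were thus not measured more closely than dim ones on this scale. Ribosomal proteins had a median SD of 0.535 and glycolysis 0.504, both above the 0.323 of all genes, and homeobox genes and ion channels had 0.248 and 0.261. Among the 10 steadiest genes above the median level were RAP2C, a Ras-related GTPase, at 7.37 ± 0.02, ORMDL1, a regulator of sphingolipid synthesis, at 7.48 ± 0.03, NR2F6, an orphan nuclear receptor, at 7.54 ± 0.03, RPH3AL, an effector of Rab GTPases, at 9.23 ± 0.04, and HDAC2, a histone deacetylase, at 8.12 ± 0.04 (SD, n = 4). HDAC2 read 8.16, 8.14, 8.07 and 8.12 on arrays 1, 2, 3 and 6, and 9.07 and 9.45 on arrays 4 and 5. TMSB10, which binds actin monomers, was among the least steady, with 5.78, 8.44, 9.40 and 7.32 on arrays 1, 2, 3 and 6.

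The 6 Mia-PaCa-2 arrays given Amblyomin-X took no part in the choice of genes and share the authors' normalization with the untreated ones. Of the 25 highest genes, 23 were also among the 25 highest on the treated arrays, and of the 100 highest, 93 were among the 100 highest. All 100 lay in the highest 10%. Of the 100 lowest genes, 8 were among the 100 lowest on the treated arrays and 73 were in the lowest 10%. The upper end of the ranking was thus found again in other samples of the line, while single genes at the lower end mostly changed places among the dimmest genes.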

How the data were processed

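Members and gene lists were chosen with earlier results of these data known. Total RNA was made into biotin-labelled cRNA, hybridized to CodeLink arrays and read with an arrayWoRx scanner, per the labels' protocols. Per the file headers, each deposited per-sample file lists 1 linear intensity per probe, and the deposited series table gives the authors' normalized intensity of the same probes. No source used here names the normalization, background correction or flags. The 4 arrays share 1 maximum and keep their probe order. The deposited intensities were turned into log2 values here, with no other scaling and no pseudocount. Untreated Mia-PaCa-2 arrays 1, 2, 3 and 6 were used and grouped by sample title. No comparison between groups was tested, because the values chose the genes. Dixon's rule was used only to pick out single arrays for the closing section.

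Symbols come from the supplied platform annotation, updated through RefSeq gene identifiers. The naming rule took the 25 highest and 20 lowest genes, the 10 genes of largest and the 10 of smallest SD (the smallest among genes above the median), the 4 highest and 2 lowest members of each of 43 lists, all measured markers, and probes lacking a normalized value. Marker lists with no measured member (acinar, islet and leukocyte) gave no values. The highest and lowest 10% are 634 genes each. Protein length was not computed. Other settings were to leave out each array, to use all 6 arrays, the per-sample intensities, the mean of a gene's probes, values on all 4 arrays, brightest missing values filled with the array's maximum, and the lowest 25% of probes left out. Group medians per array use genes with a value on all 4 arrays, also a choice made after first values had been seen. The scripts were tested on simulated data. Python 3.11.15, pandas 2.3.3, NumPy 2.4.6 and matplotlib 3.10.9 were used. The number of arrays limits the precision.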

Additional observations from a re-analysis of the deposited data

Results flagged for a closer look

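For each named gene with 4 values, and for the median of each list of 5 or more such genes, the highest or lowest of the 4 arrays was set against the other 3. In 15 of 291 comparisons its gap to the nearest array took up more of the range than Dixon's critical value for 4 values, and chance gives about 1 in 20. Many of these genes were named for an extreme level or SD, so the count is no measure of how often this happens over all genes. LIMS1, an adaptor of integrin adhesions, stood at 9.71 on array 1, against 5.79 to 6.18 on the others. Among bright genes, SF3B6 stood at 13.38 on array 3 against 13.13 on each other array, and PSMA6 at 12.36 on array 1 against 12.09 to 12.11. NDUFS5 stood at 11.49 on array 3 against 11.90 to 11.96, and SNHG6, a host gene of small nucleolar RNAs, at 8.84 on array 1 against 9.64 to 9.73. Lower down, EIF2B5 stood at 6.10 on array 6 against 6.48 to 6.53, MRPL22 at 5.25 on array 3 against 5.65 to 5.72, and TCAP at 4.34 on array 3 against 4.94 to 5.05. On array 2, the oocyte linker histone H1-8 stood at 4.79 against 5.76 to 5.79, and IL10RB at 4.74 against 5.59 to 5.70. The other 4 genes fell much further on 1 array. GOSR2, a Golgi SNARE, stood at 3.10 on array 1 against 5.78 to 6.29, and SEPSECS, which makes the selenocysteine transfer RNA, at 3.47 on array 1 against 5.04 to 5.32. FAM136A stood at 1.97 on array 6 against 5.53 and more on the others, and SLC43A1, an amino acid transporter, at 2.48 on array 3 against 5.04 to 5.26. The ubiquitin conjugation list stood 0.44 above all genes on array 1 and 0.70 to 0.73 above on the others.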

How the results depend on the processing

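Of the 160 recomputed main values (genes kept at both ends, median SD and the counts of 13 gene groups), 156 stayed within 1.5 times their value. Leaving out each array in turn, with a value needed on 2 of the other 3 (a minimum chosen after values had been seen), kept 93 to 97 of the 100 highest genes and 70 to 78 of the 100 lowest. Averaging a gene's probes kept 81 of the highest. With all 6 untreated arrays, 93 of the highest and 61 of the lowest were kept, the median SD was 0.47 against 0.32, and the keratin median turned to 0.05 above that of all genes. Without the lowest 25% of probes, 0 of the 100 lowest genes were kept by construction. The median then lay higher, and 15 receptors instead of 32 and 17 ion channels instead of 32 lay below it. Both groups lost their dimmest members to this filter, so the lower counts do not show that they rank higher. Of 590 other values, 527 moved by less than the spread between arrays (or 1.5 times, for counts), 62 moved further and 1, the keratins, changed sign. A change of sign was counted as such only where the main value was larger in size than that spread. Of the 62, 24 moved when the lowest 25% of probes were left out and 12 when a gene's probes were averaged. No paired analysis was possible because no test compares groups here. No source used here gives signal over background, and how far dim levels lie above it is not known. Before normalization, 2, 4, 0 and 3 probes read at or below 0 on arrays 1, 2, 3 and 6. The lowest levels may therefore hold no signal, and the order among them may not be one of expression.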

Other observations

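Small GTPases, which switch membrane traffic and the cytoskeleton, had a median of 7.04 over 37 members, with 6 in the highest 10%. ARF1, which recruits coats to Golgi membranes, averaged 11.46 ± 0.15, RAB34 averaged 11.17 ± 0.25 and CDC42 averaged 11.12 ± 0.36 (SD, n = 4). RAB35 and RAP1A averaged 5.45 and 5.76. Lysosomal and V-ATPase genes had a median of 7.32 over 31 members, with 8 in the highest 10%. ATP6V0E1, a subunit of the proton pump, averaged 11.37 and CTSC, a lysosomal protease, averaged 10.89, while the pump subunit ATP6V1A averaged 5.33. Antioxidant genes had a median of 7.88 over 13 members, led by PRDX6 at 10.27 and NQO1 at 9.69, with GCLC low at 5.60. Among 6 antigen presentation genes, B2M, the partner of class I chains, read 6.59, 6.75, 6.84 and 6.16 on arrays 1, 2, 3 and 6.

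The 24 homeobox genes had a median of 6.77 and none in the highest 10%. ONECUT2, a factor of liver and pancreas development, averaged 8.07 ± 0.47, and MSX1 averaged 8.01 ± 0.67 (SD, n = 4). The 11 cytochrome P450 and glucuronosyltransferase genes had a median of 6.64, between 5.00 for CYP1B1 and 7.32 for CYP2F1. LMNA, the nuclear lamin A and C gene, averaged 8.97 ± 0.57 (SD, n = 4).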
